A study of Rattus norvegicus with 167 samples.

Results

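At day 90 after a complete spinal cord transection, cord tissue just rostral to the lesion was compared between rats that had received a neurotrophin-3 implant and rats whose lesion was left empty. Members were taken from the sample titles: the 3 arrays of the rostral NT3 group at day 90 and the 3 arrays of the rostral lesion control (LC) group at day 90, 6 of the 167 arrays of the series. All animals were adult female Wistar rats whose thoracic cord had been cut through with removal of a 5 mm segment, so injury and surgery are common to both groups. The NT3 group had a chitosan tube loaded with neurotrophin-3 placed in the gap, the ET group an empty chitosan tube, and the LC group nothing. Each array measured total RNA of a 5 mm piece of whole cord, so that fewer cells of a type and less RNA per cell cannot be told apart. The series also holds caudal and lesion-site segments, days 1 to 90 and 3 uninjured cords, which serve here as comparison. Since the labels do not say that arrays of a group come from separate animals, p-values measure the spread between these samples, which may be technical. The number of arrays limits the precision.

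Major histocompatibility complex (MHC) class I molecules, called RT1 in the rat, carry peptides from inside the cell to its surface, where T cells read them. The peptides are cut by the immunoproteasome, pumped into the endoplasmic reticulum by the Tap transporter and loaded with the help of tapasin, and interferons raise most genes of this pathway, in microglia among other cells. Neurotrophin-3 signals mainly through the receptor TrkC, made by the gene Ntrk3, which is known from proprioceptive sensory neurons and from neurons and glia of the cord.

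The labelled tissue was borne out by its defining genes. In the 6 arrays Gfap, Mbp and Snap25, which mark astrocytes, myelin and neurons, all lay above the 99.6th percentile of their array, whereas the muscle gene Ckm and the fat gene Adipoq lay below the 14th. Correlations between arrays over all tested genes were at least 0.993 within the NT3 group, at least 0.994 within the LC group, and 0.982 to 0.989 between the groups. The 3 ET arrays of day 90 were less alike, at 0.985 to 0.990, and correlated with the NT3 arrays at 0.965 to 0.979. The beta-actin 3′ minus 5′ difference, a sign of RNA quality on the log2 scale, was 0.92 to 1.01 in NT3 arrays and 0.90 to 1.13 in LC arrays, so the groups overlapped, while uninjured cords had 1.35 to 2.29.

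The gene for neurotrophin-3, Ntf3, was listed at 4.86, 4.74 and 4.76 in NT3 cord and at 4.75, 4.64 and 4.73 in LC cord (log2 values), between the 12th and 16th percentile of the arrays and under the filter on low values. These levels report the animals' own transcript and do not report the implanted protein. Ntrk3 had 7.43, 7.31 and 7.35 in NT3 cord and 7.15, 7.15 and 7.20 in LC cord, a difference of 0.20 ± 0.16 (SE) with an adjusted p of 0.528 in limma. Of 18 tested neurotrophins and receptors 1 was lower, the ciliary neurotrophic factor gene Cntf, at 10.46, 10.57 and 10.62 in NT3 cord and 11.00, 11.17 and 10.95 in LC cord (difference -0.49, adjusted p = 0.0323). Over all tested genes 3.54% were lower. Ngfr differed by 0.77 with an adjusted p of 0.124, and the differences of Ntrk2 and Bdnf were 0.18 and 0.07.

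Between NT3 and LC cord 618 of 12040 tested genes (5.13%) differed by limma with Benjamini-Hochberg adjustment at 0.05, 192 higher (1.59%) and 426 lower (3.54%) in NT3. Of these, 19 (0.158%) were higher and 24 (0.199%) were lower by at least 1 on the log2 scale, which is a fold of 2. The NT3 and LC arrays did not overlap in 611 of the 618, against 34.9% of all tested genes. Quantile normalization gave 275 higher and 349 lower, and scaling to the 75th percentile 254 and 351. With the replicate number as a block the count was 1022. Any array mattered to the count: it was 166, 58 and 224 without NT3 replicate 1, 2 and 3, and 127, 77 and 117 without LC replicate 1, 2 and 3. In all of these 6 fits 31 genes stayed called, 8 higher and 23 lower. Among the genes named here these were RT1-CE10, RT1-CE16, RT1-CE12, RT1-CE5, Oas1b, Psmb9, Tap2, Tapbp, Cxcl11, Syngr1, Rims2 and Gfra3, and each other called gene of the comparison named in these paragraphs lost its call without at least 1 of the 6 arrays. RT1-CE10 was already known to differ when these groups were chosen, so its calls are a description and not a test.

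Several MHC class I genes were lower in NT3 cord. RT1-CE10, a class I heavy chain gene that was already known to differ when these groups were chosen, had log2 values of 7.05, 7.37 and 7.35 in NT3 cord against 11.10, 10.40 and 11.31 in LC cord. The groups lay far apart, with every NT3 array near the middle of its array's range (48th to 52nd percentile) and every LC array above the 91st. As a description, the difference was -3.68 ± 0.24 (SE), a 12.8-fold lower value in NT3. RT1-CE16 had 7.12, 7.27 and 7.28 in NT3 cord and 9.23, 9.0 and 9.45 in LC cord (difference -2.0, adjusted p = 1.91e-10). RT1-CE12, named like RT1-CE5, RT1-A3 and RT1-S3 after its values were seen, had 10.58, 10.61 and 10.55 in NT3 cord and 12.11, 11.92 and 12.27 in LC cord (difference -1.52, adjusted p = 1.27e-12). RT1-CE5, RT1-A3 and RT1-S3 were lower by -0.77, -0.62 and -0.71.

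The machinery that supplies class I with peptides was lower as well. Psmb9, a catalytic subunit of the immunoproteasome, had 8.54, 8.72 and 8.52 in NT3 cord against 9.88, 9.91 and 10.00 in LC cord, and the difference was -1.34 ± 0.20 (SE, adjusted p = 8.34e-05). Tap2 had 7.24, 7.22 and 6.96 in NT3 cord and 7.88, 7.76 and 7.90 in LC cord. Tap2 and Tap1, the subunits of the peptide transporter, were lower by -0.71 (adjusted p = 0.00607) and -0.50 (adjusted p = 0.0249), and Tapbp, which encodes tapasin, by -0.47 (adjusted p = 0.00187), all named after their values were seen. The NT3 and LC arrays of these 4 genes did not overlap, as in 611 of the 618 called genes and 34.9% of all tested genes. B2m, the light chain shared by all class I molecules, differed by -0.14 and Psmb8, another immunoproteasome subunit, by -0.36, without passing (adjusted p = 0.0959 and 0.281).

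Of 17 tested members of the class I list 10 were lower and 1 higher, against 3.54% lower among all tested genes, with a median difference of -0.50 against -0.0035 over all genes. The list holds RT1-CE10, whose difference was known when the groups were chosen. Without it 9 of 16 were lower and 1 higher, with a median of -0.48. Of its 11 calls, 7 were made without NT3 replicate 1 or LC replicate 3, and 8 or 9 without any other of the 6 arrays. The exception was RT1-T24-4, a nonclassical class I gene, with 10.66, 10.60 and 10.40 in NT3 cord and 9.60, 9.74 and 8.39 in LC cord (difference 1.31, adjusted p = 0.0223). RT1-T24-3, RT1-N2 and RT1-A, outside the list and named after their values were seen, were also higher, by 1.37, 1.21 and 0.69 (adjusted p = 0.0405, 0.0268 and 0.0469). The class II beta chain gene RT1-Bb was lower by -2.80 (adjusted p = 0.0393), but its other probe set differed by 1.76 in the opposite direction, and the other 7 tested class II genes did not pass. Cd74, the invariant chain of class II, had a difference of -0.64 with an adjusted p of 0.161.

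RT1 genes are close copies of each other, and what a probe set of 1 gene reads from another cannot be told apart, so each single RT1 value is uncertain. RT1-CE5 has 5 probe sets, whose NT3 minus LC differences ran from -1.84 to 0.20, and the 4 of RT1-S3 ran from -0.76 to 0.09. In the GRCr8 annotation all 67 RT1 genes lie on chromosome 20. Between the outermost of them 98 genes were tested, and 20.4% were called, against 5.13% of all tested genes. These were 10 of 17 RT1 genes, 7 lower and 3 higher, and 10 of 81 others, also 7 lower and 3 higher. The lower others include Psmb9, Tap1, Tap2 and Aif1, so these genes lie in the same stretch as the RT1 genes. Whether their levels and those of the RT1 genes share a source was not tested. The lower RT1 genes include RT1-CE10, which was known to differ when the groups were chosen. RT1-A was not found in that annotation and is not among the 17. That stretch was chosen after values in it were seen.

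RT1-CE10 took a high or a low level by whole group, and which group was high changed with the day. In the 21 rostral groups, 7 had all arrays between 9.85 and 11.4, 13 had all arrays between 6.64 and 7.87, and 1, LC at day 3, held 7.27, 7.97 and 9.19. The high groups were ET and LC at day 1, NT3, ET and LC at day 30, ET at day 60 and LC at day 90. Uninjured cords had 6.68, 6.57 and 6.49. RT1-CE12 was high in these same 7 groups, at 11.8 to 12.7, and lay between 10.3 and 11.2 in all other rostral arrays. RT1-T24-4 ran the other way in most of them: it lay between 7.41 and 8.81 in ET and LC at day 1 and in all groups of day 30, and between 8.39 and 9.74 in LC at day 90, while in ET at day 60 it had 10.2 to 11.0.

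**Figure D1:**
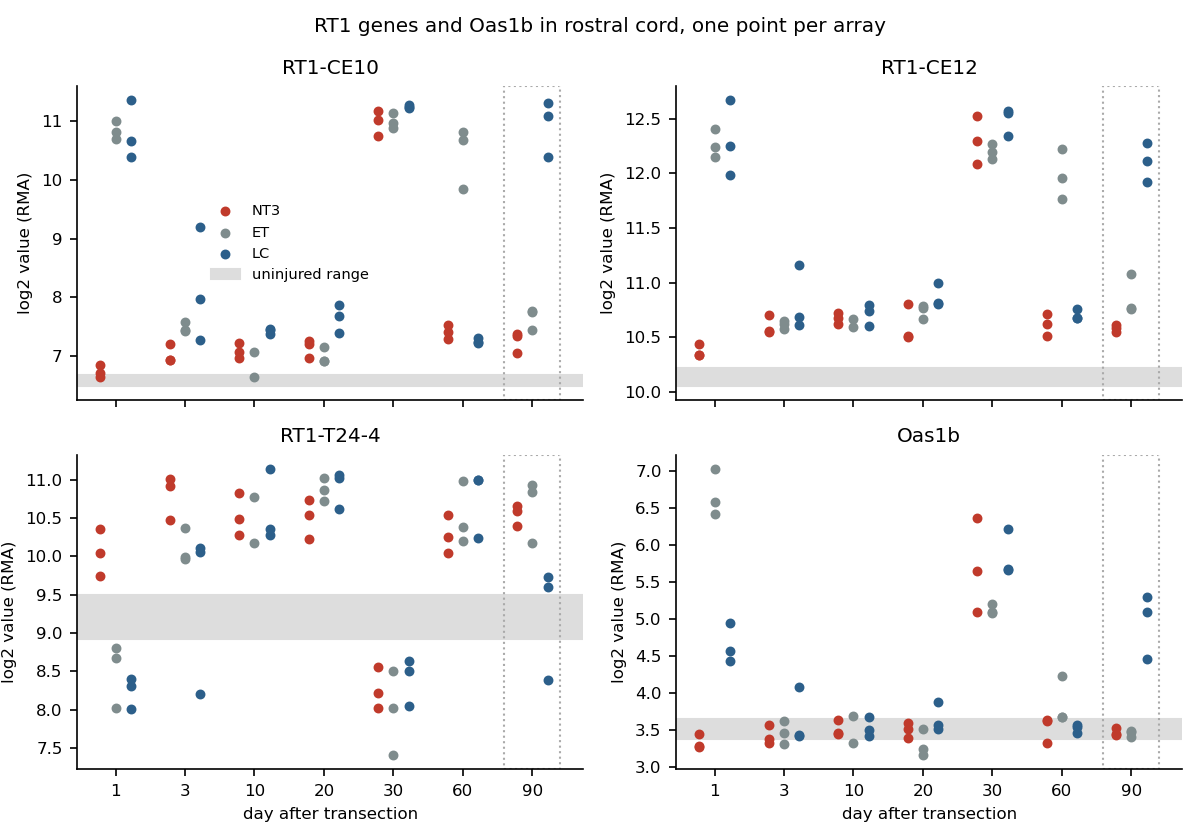
RMA log2 values of RT1-CE10, RT1-CE12, RT1-T24-4 and Oas1b in every rostral array, by day after transection, with NT3, ET and LC from left to right and the range of the 3 uninjured cords in grey. In the dotted frame, day 90, the NT3 arrays of RT1-CE10 lie at 7.05 to 7.37 and the LC arrays at 10.40 to 11.31.

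The same split was seen beyond the rostral segment on day 90. At the lesion site RT1-CE10 had 7.54 to 7.73 in NT3 cord and 11.1 to 11.8 in LC cord, and caudally 7.15, 7.03 and 7.16 in NT3 cord and 11.45, 10.17 and 11.16 in LC cord. Segments of a group may come from the same animals, which the labels do not tell. Oas1b, a member of the interferon-induced oligoadenylate synthetase family, had 3.52, 3.43 and 3.43 in NT3 cord and 4.46, 5.30 and 5.09 in LC cord (difference -1.49, adjusted p = 5.12e-06). Its NT3 values lay below the 3rd percentile of the array, and its LC values between the 10th and the 22nd, so that the size of its difference is uncertain. Prss35, a serine protease gene, had 5.33, 5.21 and 5.14 in NT3 cord and 7.68, 6.97 and 7.11 in LC cord (difference -2.03, adjusted p = 0.0137). Both were lower caudally too, by -1.28 and -1.85 (adjusted p = 0.0275 and 0.0167). Both rose in nearly the same groups as RT1-CE10. Prss35 had rostral means of 6.74 and 6.8 in ET and LC at day 1 and 7.48 in ET at day 60. At day 30 NT3, ET and LC had 8.22, 8.81 and 7.13. Apart from LC at day 90, the other rostral means were at most 5.69. Single LC arrays had 5.09 at day 30 and 6.86 at day 3. Oas1b means were 4.65 to 6.68 in the high groups, 3.85 in ET at day 60 and at most 3.65 elsewhere. Whether treatment or the origin of the animals sets these levels was not tested. Brcc3-ps7, annotated by its name as a pseudogene, was lower by -1.73 (adjusted p = 0.0459), with an NT3 range of 5.72 to 5.84 and LC values of 6.64, 7.77 and 8.16.

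Genes that interferons induce were lower in part. Isg15, a ubiquitin-like modifier, had 8.17, 8.15 and 8.26 in NT3 cord and 9.34, 9.96 and 9.31 in LC cord (difference -1.34, adjusted p = 0.0223). Bst2, which tethers budding viruses to the membrane, had 9.32, 9.77 and 9.50 in NT3 cord and 10.71, 10.45 and 10.68 in LC cord (difference -1.08, adjusted p = 0.0125). The NT3 arrays of both genes lay below every LC array, and uninjured cords had 7.76 to 8.26 for Isg15 and 7.56 to 8.13 for Bst2, so that only Isg15 overlapped with uninjured cord in NT3 arrays. Of 21 tested members of the interferon list 4 were lower and 0 higher, against 3.54% lower over all genes, the other 2 being Gbp2, an interferon-induced GTPase (-0.72), and Mx1, an antiviral GTPase (-0.88, adjusted p = 0.0460). The list's median was -0.55, and 20 of 21 differences were negative, against 6128 of 12040 over all genes. Without NT3 replicate 1 or LC replicate 2, 1 member was called, and without NT3 replicate 2 or LC replicate 3, 2 were.

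Promoters from RefSeq (build GRCr8, 250 bases before to 50 after the annotated start) were searched on both strands for GAAANNGAA. This is a core form of the element through which interferon-activated factors act, and other forms of it were not searched for. The motif was chosen because loading and interferon genes were lower in the same arrays. It occurs in 9.71% of all 33469 promoters and in 7.61% of those of 9997 tested genes. Among called genes it is in 45 of 364 promoters of lower genes and in 7 of 162 of higher genes. Its matches among called genes include Tap1, Tap2, Tapbp, Psmb10, Psme2, Bst2, Gbp2, Oas1b and RT1-S3. They also include genes of other kinds, such as the ribosomal genes Rpl5, Rpl41 and Rps24, and Snrpe, Ipo7 and Cbx5. Hoxa10, Scn10a and Scd, which were higher in NT3 cord, have a match as well. A match is a run of letters and not a measured site, and a promoter without a match may hold another form of the element. GGGATTCCC, a core of enhancer A of class I promoters, is in 0.365% of all promoters and in 0.330% of those of tested genes. It is in 5 of 364 of lower genes, RT1-CE10, RT1-CE16, RT1-A3, Uchl3 and Zfp658l1. RT1-CE10 was known to differ when the groups were chosen, and RT1 genes are close copies of each other. This count is therefore a description and not a test. Motifs and genes of this paragraph were chosen after values were seen. The promoters of 5 genes are printed 5′ to 3′ on the gene's strand to show where the letters lie, with matches of either motif in capitals. Tap1 is at chr20:4668494-4668793 (minus strand), Bst2 at chr16:18254918-18255217 (minus), Gbp2 at chr2:234005477-234005776 (plus), Oas1b at chr12:41395803-41396102 (minus) and RT1-CE10 at chr20:3384930-3385229 (minus).
Tap1: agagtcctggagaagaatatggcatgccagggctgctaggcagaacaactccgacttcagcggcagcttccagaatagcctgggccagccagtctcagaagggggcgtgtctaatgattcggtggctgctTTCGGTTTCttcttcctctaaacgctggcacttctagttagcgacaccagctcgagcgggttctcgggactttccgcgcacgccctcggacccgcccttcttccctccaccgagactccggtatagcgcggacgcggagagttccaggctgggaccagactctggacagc
Bst2: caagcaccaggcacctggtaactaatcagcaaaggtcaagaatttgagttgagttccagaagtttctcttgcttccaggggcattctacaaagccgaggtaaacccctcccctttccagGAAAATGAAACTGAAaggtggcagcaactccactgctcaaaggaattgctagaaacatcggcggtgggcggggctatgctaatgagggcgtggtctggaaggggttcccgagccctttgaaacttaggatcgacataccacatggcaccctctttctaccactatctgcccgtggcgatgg
Gbp2: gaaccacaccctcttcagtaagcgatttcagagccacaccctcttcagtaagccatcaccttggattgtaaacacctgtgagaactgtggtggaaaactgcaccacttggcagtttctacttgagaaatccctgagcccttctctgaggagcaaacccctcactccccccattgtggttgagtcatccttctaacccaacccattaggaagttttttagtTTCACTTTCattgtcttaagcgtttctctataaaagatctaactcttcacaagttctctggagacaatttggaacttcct
Oas1b: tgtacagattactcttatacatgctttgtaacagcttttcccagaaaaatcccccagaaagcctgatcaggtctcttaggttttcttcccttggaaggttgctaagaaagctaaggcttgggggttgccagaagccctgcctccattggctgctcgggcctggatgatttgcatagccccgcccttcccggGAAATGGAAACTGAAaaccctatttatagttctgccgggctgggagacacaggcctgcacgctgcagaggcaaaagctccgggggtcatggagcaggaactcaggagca
RT1-CE10: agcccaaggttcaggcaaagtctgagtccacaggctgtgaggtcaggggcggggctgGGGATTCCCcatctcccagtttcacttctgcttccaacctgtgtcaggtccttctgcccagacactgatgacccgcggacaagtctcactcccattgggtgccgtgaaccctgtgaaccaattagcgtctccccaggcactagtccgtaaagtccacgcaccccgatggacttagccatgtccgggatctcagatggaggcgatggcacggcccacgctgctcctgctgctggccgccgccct

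In Tap1 and Gbp2 the motif reads on the opposite strand. Bst2 and Oas1b each hold 2 matches that overlap. The Psmb9 promoter, at chr20:4668750-4669049 on the plus strand, overlaps that of Tap1, its neighbour on the other strand, and holds no match.

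Some chemokine and microglial genes were lower in NT3 cord. Cxcl11, a chemokine for activated T cells, had 6.50, 6.97 and 6.70 in NT3 cord and 8.06, 8.54 and 8.22 in LC cord (difference -1.56, adjusted p = 0.000390). Ccl2, which draws monocytes, had 7.91, 7.98 and 7.52 in NT3 cord and 8.70, 9.40 and 8.40 in LC cord (difference -1.03, adjusted p = 0.0341). Ccl9, a chemokine outside the lists, had 4.53, 5.21 and 4.72 in NT3 cord and 7.95, 6.40 and 6.97 in LC cord (difference -2.29, adjusted p = 0.0214). In these 3 genes no NT3 array reached the lowest LC array, and the groups did not overlap in 34.9% of all tested genes. Of 23 tested cytokines and chemokines 4 were lower and 0 higher, against 3.54% lower over all genes, with a median of -0.44. Without NT3 replicate 2, 1 was called, and without NT3 replicate 1 or 3, 2 were.

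Of 22 tested microglia and macrophage genes 4 were lower, against 3.54% of all genes: Tyrobp and Fcer1g, signalling adaptors of immune receptors, Aif1, the gene of the microglial marker Iba1, and the inhibitory Fc receptor gene Fcgr2b. Aif1 had 10.84, 10.74 and 10.59 in NT3 cord, 11.05, 11.10 and 10.98 in ET cord and 11.40, 11.43 and 11.44 in LC cord, with 9.21, 9.62 and 9.77 in uninjured cord. The difference of NT3 and LC was -0.70 ± 0.19 (SE, adjusted p = 0.0250), and all injured groups stood above uninjured cord. Cd68 had 11.27, 11.16 and 11.32 in NT3 cord and 11.46, 11.70 and 11.40 in LC cord, and 6.55, 6.50 and 6.56 in uninjured cord. It did not pass between NT3 and LC (difference -0.27, adjusted p = 0.520). Cx3cr1, P2ry12, Tmem119 and Csf1r, also of the list, differed by -0.23, -0.04, 0.008 and -0.13 without passing (adjusted p = 0.408, 0.929, 0.987 and 0.567). The list's median was -0.25, and its mean level was 10.1 in each NT3 array and 10.3 to 10.5 in LC arrays. Its 4 calls were 0 without NT3 replicate 1, NT3 replicate 2, LC replicate 1 or LC replicate 2, and 1 without either of the others. Of 23 phagocyte and lysosome genes limma called 0, with 4 lower and 0 higher at an unadjusted p under 0.05.

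**Figure D2:**
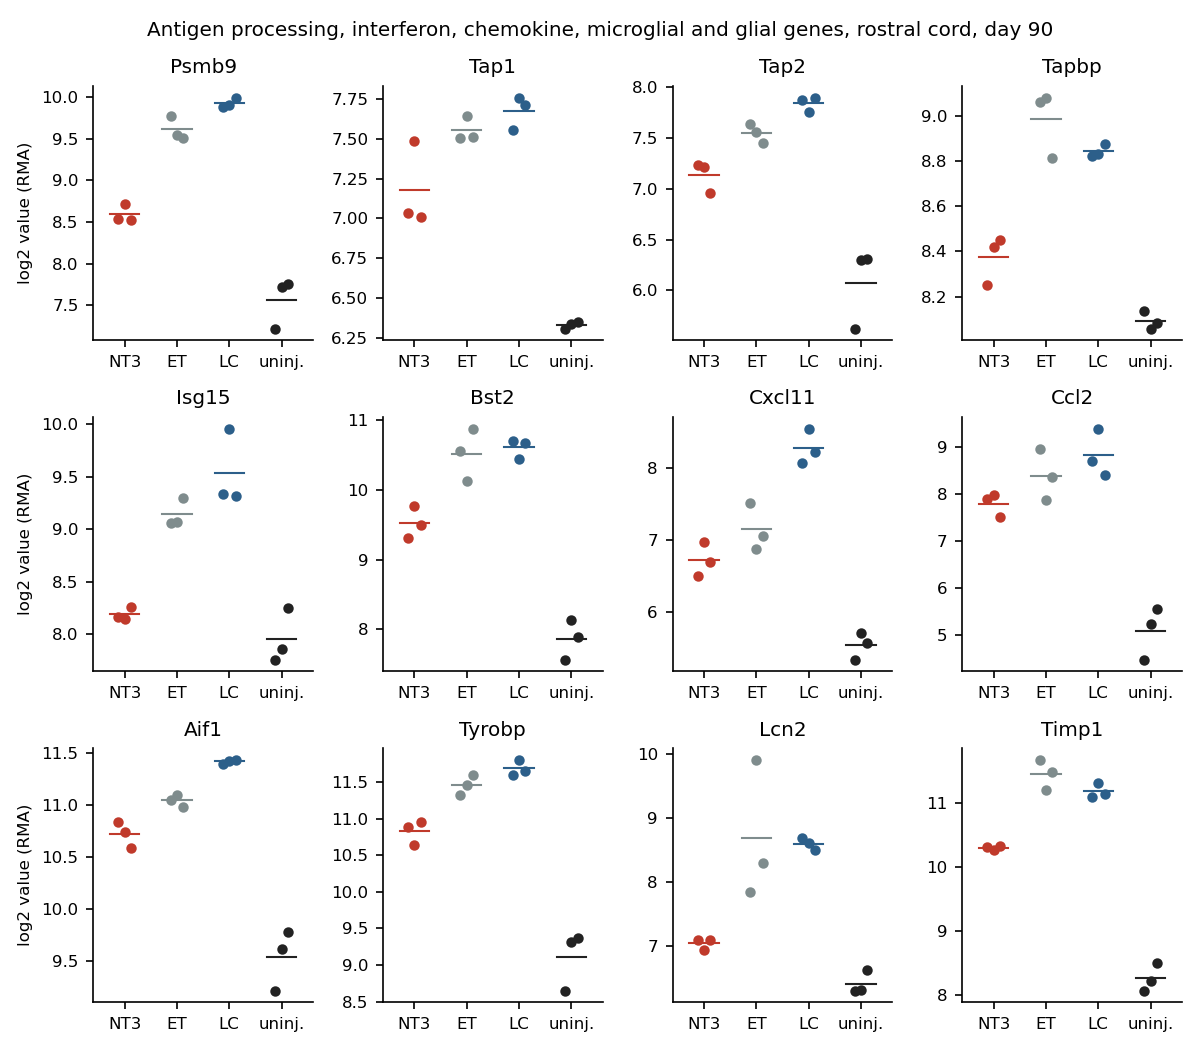
RMA log2 values of 12 genes in rostral cord on day 90 (NT3, ET and LC) and in uninjured cord, 1 point per array with the group mean as a line, each gene on its own scale that does not start at 0. The NT3 arrays lie below the LC arrays in all 12 genes, as for Isg15 at 8.15 to 8.26 against 9.31 to 9.96. All 12 were picked from genes called lower, and the groups do not overlap in 611 of 618 called genes and in 34.9% of all tested genes.

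Markers of reactive astrocytes split. Gfap differed by 0.07 (adjusted p = 0.538), at 14.37, 14.42 and 14.44 in NT3 cord and 14.34, 14.35 and 14.33 in LC cord. Lcn2, a secreted iron-trafficking protein of inflamed tissue, had 7.1, 6.95 and 7.11 in NT3 cord and 8.68, 8.61 and 8.50 in LC cord (difference -1.54, adjusted p = 0.0380). Timp1, an inhibitor of matrix metalloproteinases, had 10.32, 10.27 and 10.33 in NT3 cord and 11.10, 11.31 and 11.15 in LC cord (difference -0.88, adjusted p = 0.0166). Of 16 tested genes of that list 3 were lower and 0 higher, against 3.54% lower over all genes. Of 8 tested genes of ependyma and motile cilia 2 were lower, against the same 3.54%. They were the dynein light chain gene Dynlrb2 (-1.01, adjusted p = 0.0250) and Tmem212 (-0.74, adjusted p = 0.0144). Pla2g2a, a secreted phospholipase, had 6.66, 7.11 and 6.71 in NT3 cord and 8.41, 8.56 and 8.42 in LC cord (difference -1.64, adjusted p = 0.0295), and Zbtb41, a zinc finger gene, was lower by -1.62 (adjusted p = 0.0120).

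Several genes of peripheral sensory neurons were higher in NT3 cord. Scn9a, the sodium channel Nav1.7, had 6.50, 7.77 and 7.44 in NT3 cord and 5.68, 5.21 and 5.36 in LC cord (difference 1.82 ± 0.43, SE, adjusted p = 0.0162). Avil, an actin-binding protein of sensory neurons, had 8.72, 10.14 and 10.09 in NT3 cord and 8.42, 7.68 and 7.52 in LC cord (difference 1.77, adjusted p = 0.0264). Scn11a, the channel Nav1.9, had 6.39, 7.44 and 7.40 in NT3 cord and 5.73, 5.55 and 4.99 in LC cord (difference 1.65, adjusted p = 0.0138). In all 3 genes NT3 replicates 2 and 3 were higher than NT3 replicate 1, which still lay above every LC array. Asic3, an acid-sensing channel, and Pirt, a regulator of Trpv1, were higher by 1.48 and 1.65 (adjusted p = 0.00674 and 0.0125), and Tmem233 by 1.44. P2rx3, an ATP-gated channel, Trpv1, the capsaicin receptor, and Scn10a, the channel Nav1.8, were higher by 1.25, 1.05 and 0.59, and Chrna3 and Gfra3, a nicotinic receptor subunit and the artemin receptor, by 1.32 and 0.96. These 5 genes were named after their values were seen. Tyrp1, an enzyme of melanin synthesis, had 7.37, 8.83 and 8.62 in NT3 cord and 6.42, 5.38 and 5.67 in LC cord (difference 2.45, adjusted p = 0.0232), and Ppp1r1c, an inhibitor of protein phosphatase, was higher by 1.91 (adjusted p = 0.0296).

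Of 10 tested genes of the dorsal root ganglion list 6 were higher and 0 lower, against 1.59% higher over all genes, with a median of 0.93. The 4 others, Prph, Calca, Tac1 and Runx1, differed by 0.80, 0.64, 0.43 and 0.08 without passing. The mean level of the list was 8.20, 8.99 and 8.95 in NT3 arrays, 7.73, 8.04 and 7.97 in ET arrays, 7.92, 7.64 and 7.55 in LC arrays, and 7.55 to 7.68 in uninjured cord. Single arrays of other groups were as high: of the 59 other rostral arrays 13 lay above the lowest NT3 array of day 90, the highest being NT3 replicate 3 and LC replicate 2 of day 60 at 9.17 and 9.13. The 6 calls were 0 without NT3 replicate 2, NT3 replicate 3 or LC replicate 3, 1 without LC replicate 2, 3 without LC replicate 1 and 6 without NT3 replicate 1. With the list's mean level as a covariate, chosen after seeing the data, 68 genes were called in place of 618. That level does not overlap between the groups, so it takes part of any group difference with it. The class I list kept 8 calls in that fit, the cytokine list 3 and the interferon list 1, and the microglia list had 0.

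**Figure D3:**
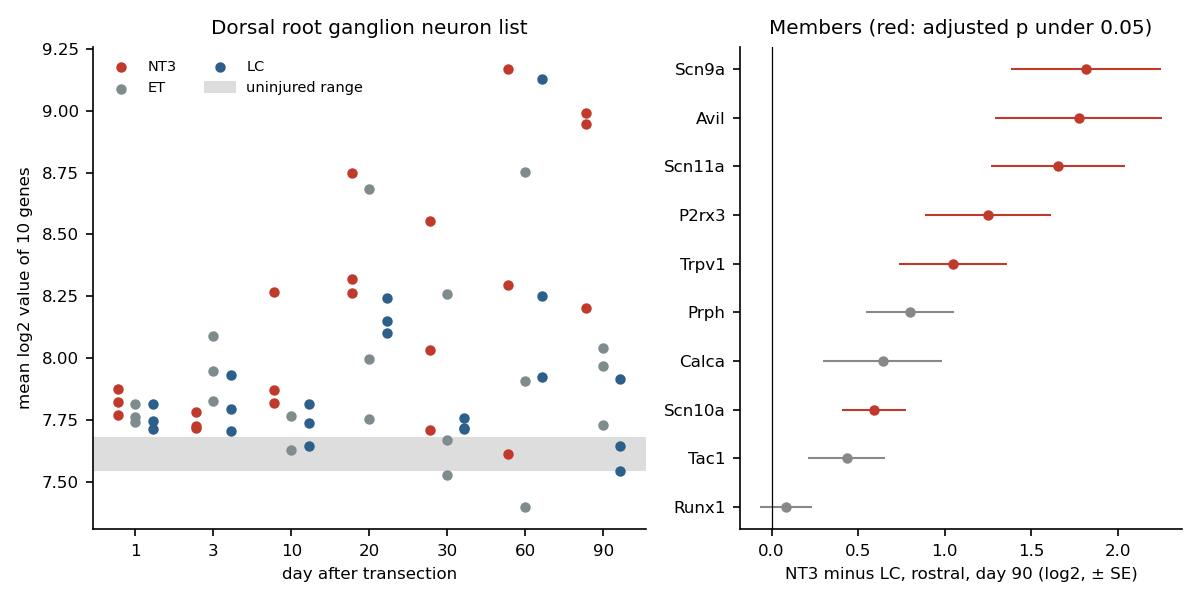
Left, the mean RMA log2 value of the 10 tested dorsal root ganglion genes in every rostral array by day, with NT3, ET and LC from left to right and the uninjured range in grey. Right, the NT3 minus LC difference of each gene on day 90 with its SE, red where the adjusted p was under 0.05. The NT3 arrays of day 90 lie at 8.20 to 8.99 and the LC arrays at 7.55 to 7.92.

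Of other neuronal genes, Htr3a, a subunit of the serotonin-gated channel, was higher by 1.02 (adjusted p = 0.0151), Isl2, a homeobox gene of motor and sensory neurons, by 0.78, the potassium channel gene Kcna4 by 0.53 and the N-type calcium channel gene Cacna1b by 0.45. Isl2 and Htr3a were highest in NT3 replicates 2 and 3, at 7.01 and 6.99 for Isl2 and at 6.38 and 6.57 for Htr3a. Kcna4, by contrast, was even over the NT3 arrays (6.54, 6.52 and 6.60, against 6.16, 5.93 and 5.98 in LC cord). Rims2, an active zone protein named after its values were seen, had 7.46, 6.90 and 6.86 in NT3 cord and 6.45, 6.34 and 6.39 in LC cord (difference 0.68, adjusted p = 0.00105). Cplx2, a regulator of vesicle release, and Chl1, an adhesion molecule of growing axons, were lower by -0.84 and -0.63, and Syngr1, a vesicle protein named after its values were seen, by -0.93.

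Most lists of resident cells held no call. By limma 0 of 24 neuron genes, 0 of 19 oligodendrocyte and myelin genes, 0 of 17 genes of astrocyte homeostasis, 0 of 21 endothelial genes and 0 of 32 cell cycle genes passed. Over all tested genes 5.13% passed. At an unadjusted p under 0.05 the counts of these lists were 4 higher and 0 lower, 2 and 0, 3 and 1, 2 and 1, and 1 and 1. Snap25 and Mbp differed by 0.13 and 0.10 (adjusted p = 0.581 and 0.240). Ptprz1, a receptor phosphatase of precursors and astrocytes, was higher by 0.42 (adjusted p = 0.0232), and Tubb2b, a tubulin of young neurons, by 0.32. Of lipid genes, Scd and Fads1, fatty acid desaturases, were higher by 0.54 and 0.44 and Insig1, a brake on sterol synthesis, by 0.39, and Ebp, a sterol isomerase, was lower by -0.38. Single calls in further lists were Cfi, a complement regulator (0.55), the clock gene Tef (0.33), Cd5 of T cells (-0.45), the immediate early gene Ier2 (-0.65), and the chaperones Hspe1 (-0.55) and Cryab (-0.45).

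Part of the genes of the ribosome, the proteasome and the respiratory chain were lower. Of 33 tested genes of the cytosolic ribosome 14 were lower and 0 higher, with a median of -0.33, and of 35 proteasome genes 8 were lower, with a median of -0.14, against 3.54% lower over all genes. The 8 proteasome calls include the immunoproteasome gene Psmb9 (-1.34), which is also counted in the class I list. Rpl22 had 11.73, 11.59 and 11.52 in NT3 cord and 12.26, 12.40 and 12.41 in LC cord (difference -0.74, adjusted p = 0.0354), and Rpl24 was lower by -0.50. Psme2, a subunit of the interferon-induced proteasome activator, had 9.99, 9.97 and 9.97 in NT3 cord and 10.64, 10.66 and 10.59 in LC cord (difference -0.65, adjusted p = 0.0125). Of 48 respiratory chain genes 4 were lower, against 3.54% of all genes, and the median was -0.36. The 4 include Ndufa5 (-0.71) and Ndufb9 (-0.50). Small subunits named after their values were seen, Ost4, Ubl5 and Polr2i, were lower by -1.06, -1.04 and -0.91. The ribosome calls fell to 0 without NT3 replicate 2 or LC replicate 2, 1 without LC replicate 1, 2 and 3 without NT3 replicate 3 and 1, and 4 without LC replicate 3. The 8 proteasome calls were 1 to 4 without any 1 array, with 3, 1 and 4 without NT3 replicate 1, 2 and 3 and 2, 1 and 3 without LC replicate 1, 2 and 3. Respiratory chain calls numbered 1 of 48 by quantile normalization or scaling to the 75th percentile, where 349 and 351 of all 12040 genes were lower.

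**Figure D4:**
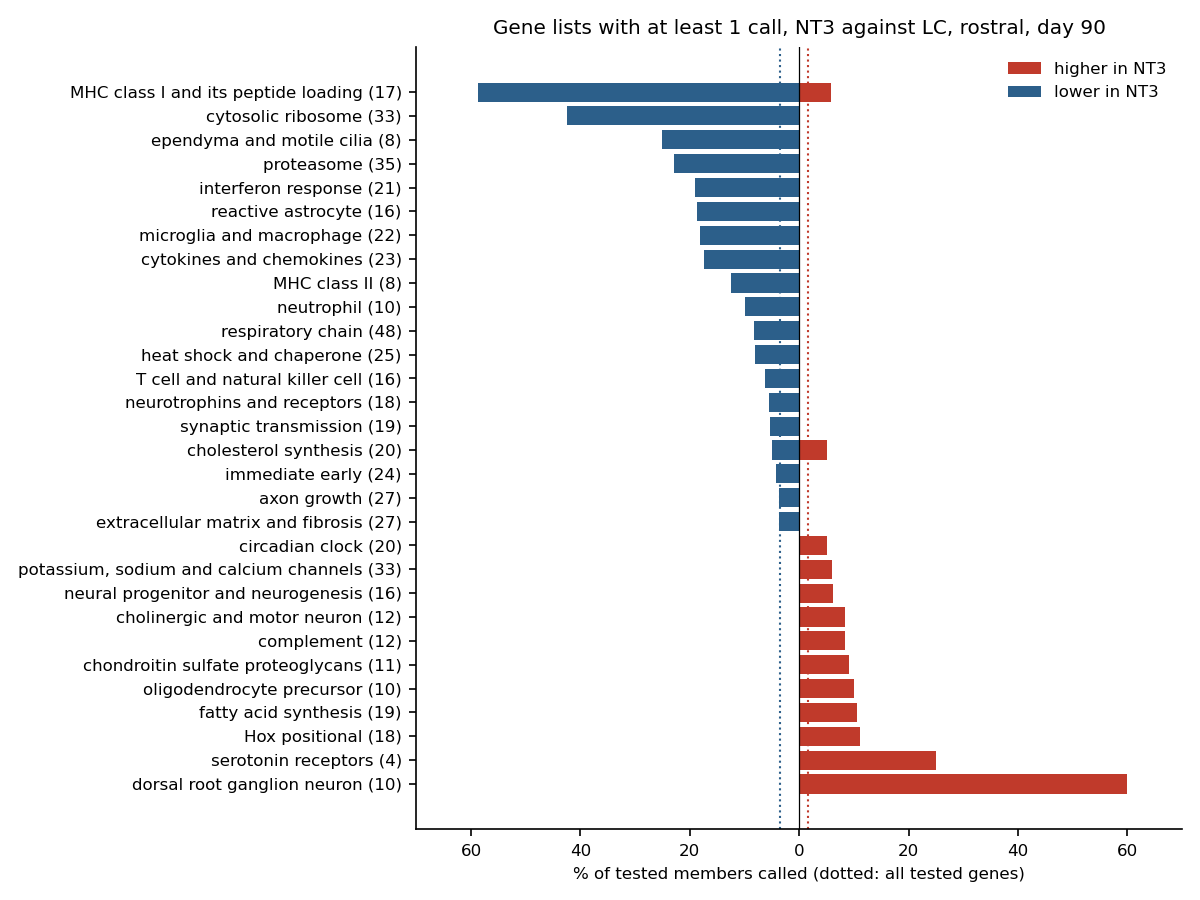
Share of tested members called in each gene list with at least 1 call, NT3 against LC in rostral cord on day 90, with the number tested in brackets. Bars to the right are members higher in NT3, bars to the left members lower in NT3, and dotted lines mark 1.59% and 3.54%, the shares of all tested genes.

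Among genes that set position along the body axis, Hoxa10 and Hoxa9 were higher, 2 of 18 tested, against 1.59% higher over all genes. Hoxa10 had 8.87, 8.23 and 7.55 in NT3 cord, 7.99, 7.79 and 7.59 in ET cord and 7.16, 6.75 and 6.80 in LC cord, with 8.64, 10.80 and 9.59 in uninjured cord (NT3 minus LC 1.31, adjusted p = 0.0332). Caudally, where these genes are normally stronger, it had 9.77, 10.60 and 8.91 in NT3 cord and 8.70, 8.46 and 8.71 in LC cord (difference 1.14, adjusted p = 0.0690). Hoxa9 was higher by 0.62 (adjusted p = 0.0120). Hoxd9 and Hoxd10, named after their values were seen, differed rostrally by 0.22 and 0.05 and caudally by 1.59 and 2.04 (adjusted p = 0.00481 and 0.00147). The 2 Hox calls were 0 without NT3 replicate 1, LC replicate 2 or LC replicate 3, and 1 without NT3 replicate 2 or LC replicate 1.

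Day 60 gave another picture of the same treatments in the same segment. There 43 genes (0.357%) differed between NT3 and LC, 29 higher (0.241%) and 14 lower (0.116%), and 1569 had an unadjusted p under 0.05, against 2689 on day 90. Only 3 genes were called on both days, 0.485% of the day 90 calls and 6.98% of the day 60 calls. They were Efcab14, Epb41l3 and Rapgef4, named after their values were seen, and each had opposite signs: -0.39, 0.33 and 0.66 on day 90, and 0.46, -0.44 and -0.74 on day 60. Among the 46 lists, microglia and macrophage genes on day 60 had 1 higher and 0 lower. The fatty acid synthesis list and the list of potassium, sodium and calcium channels each had 1 lower and 0 higher. Class I and interferon genes had 0 calls, with medians of 0.13 and 0.22.

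The change of the NT3 minus LC difference between the days was tested directly, and 764 genes (6.35%) passed, 411 (3.41%) with a higher and 353 (2.93%) with a lower difference on day 90. RT1-CE10 had 7.28, 7.53 and 7.41 in NT3 cord and 7.22, 7.31 and 7.24 in LC cord on day 60, with a difference of 0.15. Isg15 differed by 0.38 on day 60 and by -1.34 on day 90, a change of -1.72 (adjusted p = 0.0278), and Bst2 by 0.52 and -1.08, a change of -1.61 (adjusted p = 0.00710). For Psmb9 the change was -1.45 (adjusted p = 0.00322) and for Aif1 -0.85 (adjusted p = 0.0442). Scn9a had 6.12, 5.13 and 7.50 in NT3 cord and 6.25, 7.44 and 5.55 in LC cord on day 60, where the arrays of each group spread widely, and its change was 1.98 (adjusted p = 0.0426). The count of 764 was 231 to 419 without any of 8 arrays: 263 and 301 without NT3 replicates 1 and 2 of day 60, 231 and 326 without LC replicates 2 and 3 of day 60, 419 and 392 without NT3 replicates 1 and 2 of day 90, and 376 and 349 without LC replicates 1 and 3 of day 90. It was 505 without LC replicate 2 of day 90.

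**Figure D5:**
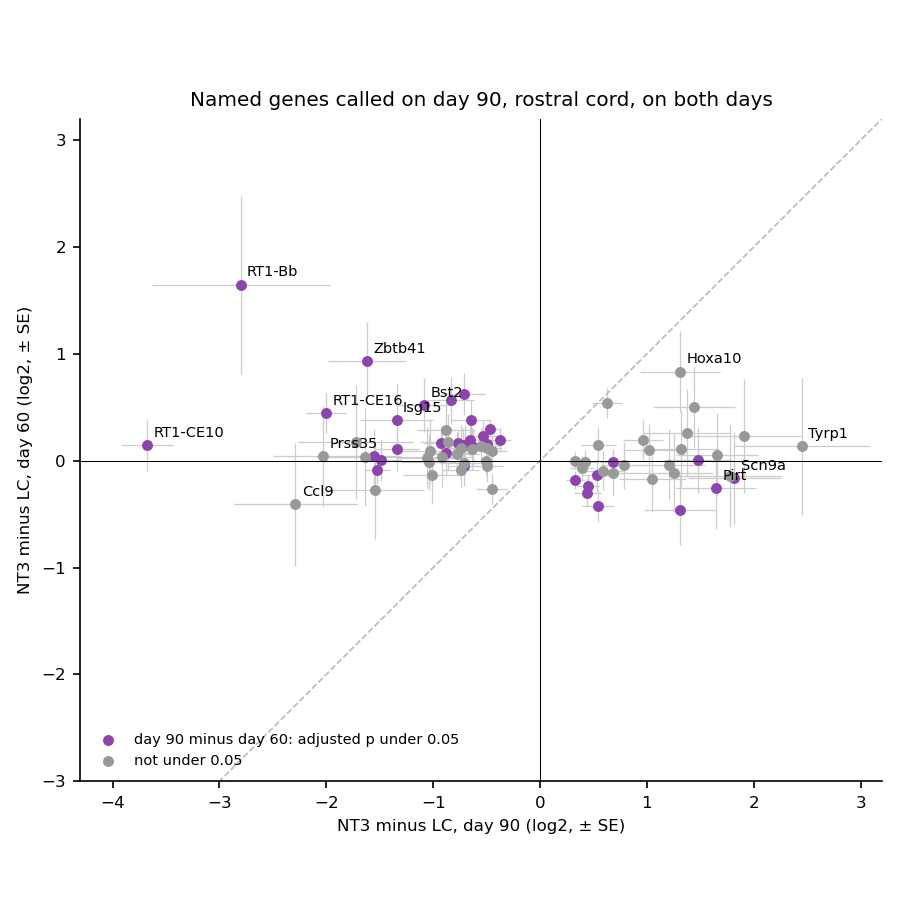
NT3 minus LC differences of the named genes called on day 90, on day 90 (x axis) and day 60 (y axis), log2 with SE in both directions. Purple marks genes whose difference changed between the days at an adjusted p under 0.05, and the dashed line marks equal differences. RT1-CE10 lies at -3.68 and 0.15, Hoxa10 at 1.31 and 0.83.

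Below the lesion, caudal NT3 and LC cord of day 90 differed in 247 genes (2.05%), 118 higher (0.98%) and 129 lower (1.07%). Of these, 28 were also called rostrally, 4.53% of the rostral and 11.3% of the caudal calls, 26 with the same sign. RT1-CE12, RT1-CE16 and RT1-CE5 were lower caudally by -1.50, -1.79 and -0.73, Tap1, Tap2 and Tapbp by -0.65, -0.75 and -0.52, and Cxcl11 by -1.28. Ccl9 was lower by -2.72 (adjusted p = 0.00513). For RT1-CE12 the rostral minus caudal difference was tested and did not pass (adjusted p = 0.965). Isg15 and Aif1 differed caudally by 0.02 and -0.05, and there too the test between segments did not pass (adjusted p = 0.105 and 0.116).

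Between segments 800 genes (6.64%) passed, 182 (1.51%) with a higher and 618 (5.13%) with a lower NT3 minus LC difference rostrally, and 388 and 520 by quantile normalization. Of 33 ribosome genes 15 had a lower difference rostrally, and of 48 respiratory chain genes 26, against 5.13% of all genes, with 0 higher in either list. With the replicate block these counts were 7 and 24. Both were 0 without rostral NT3 replicate 2, caudal NT3 replicate 1 or caudal LC replicate 1 or 2, and for the ribosome list 2 without caudal NT3 replicate 3 or rostral LC replicate 1, 1 and 3 without rostral LC replicates 2 and 3, and 5 without rostral NT3 replicate 3, but 23 without caudal LC replicate 3. For the respiratory chain they were 14 without caudal NT3 replicate 3 and 4, 9 and 10 without rostral LC replicates 1, 2 and 3. Rpl22 differed by -0.74 rostrally and 0.26 caudally (adjusted p of the difference = 0.0447), and Ndufa5 by -0.71 and 0.53 (adjusted p = 0.0251). Chl1 was lower rostrally and higher caudally, by -0.63 and 0.75 (adjusted p = 0.0123), and Zbtb41 differed by -1.62 and 1.27 (adjusted p = 0.0150). Gfra3 and Asic3 were higher rostrally by 0.96 and 1.48 and differed caudally by -0.18 and -0.08 (adjusted p of the difference = 0.0295 and 0.0368). The count of 800 rests on single arrays: it was 24 without caudal LC replicate 2 or rostral NT3 replicate 2, 40, 319 and 65 without caudal NT3 replicate 1, caudal NT3 replicate 3 and caudal LC replicate 1, 140, 240 and 265 without rostral LC replicates 1, 2 and 3, 531 without rostral NT3 replicate 3, and 1409 without caudal LC replicate 3.

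Against the empty tube, which shares the tube and the surgery but not the neurotrophin, NT3 cord of day 90 differed in 2953 genes (24.5%), 1362 higher (11.3%) and 1591 lower (13.2%), or 1781 and 1337 by quantile normalization. The same NT3 arrays enter both comparisons, and the ET arrays were the least alike of the 3 groups. Mean levels of the neutrophil list were 6.96 to 9.84 in ET and 6.11 to 6.23 in NT3 cord. The skeletal muscle list had 6.85 to 8.57 and 6.13 to 6.38, and the meninges and fibroblast list 10.6 to 10.8 and 9.83 to 10.2. The neuron list had 10.6 to 10.8 and 10.9 to 11.1. Differences in tissue content and in neurotrophin cannot be told apart in this comparison. RT1-CE10 had 7.76, 7.76 and 7.45 in ET cord, close to the NT3 arrays, with an NT3 minus ET difference of -0.40 (adjusted p = 0.229). For RT1-CE12 the difference from ET was -0.29 (adjusted p = 0.0798), and Oas1b lay at the low end of the arrays in both groups. Psmb9 was lower in NT3 than in ET cord by -1.02 (adjusted p = 0.000372), with 9.78, 9.55 and 9.51 in ET cord. Isg15, Bst2, Tapbp and Timp1 were lower by -0.95, -0.99, -0.61 and -1.16. Mx1, Gbp2, Cxcl11, Ccl2 and Aif1 did not pass against ET cord (adjusted p = 0.831, 0.113, 0.221, 0.135 and 0.204). In the same comparison 3 of 21 interferon, 6 of 23 cytokine and 5 of 22 microglia genes were lower and 0 higher. Over all genes 13.2% were lower, so the interferon count was near that share. Scn9a was higher by 1.99 (adjusted p = 0.000863) and Ntrk3 by 0.81 (adjusted p = 0.000425), with ET values for Ntrk3 of 6.33, 6.23 and 7.11. Of the 17 class I genes 10 were lower and 0 higher than in ET cord, against 13.2% lower over all genes. The count of 2953 was 1898 without NT3 replicate 1, and 1782 and 1966 without ET replicates 1 and 2.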

How the data were processed

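Rat cord RNA was hybridised to Affymetrix arrays. Per the submitters' processing notes, GCOS, RMA and Affymetrix Expression Console were used, with no versions given in the sources used here. The deposited table holds log2 values of 31099 probe sets, used unchanged. Of these 57 were controls, 20826 had 1 gene symbol, 436 several and 9780 none. Probe sets with 1 symbol were kept, and 20758 matched the RefSeq annotation of GRCr8 by gene identifier. Each of 14217 genes was read from its probe set with the highest mean. The 12040 genes above the 40th percentile of their array in at least 3 of 167 arrays were tested.

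Group means of all 62 rostral arrays and the 3 uninjured cords were fitted together with limma 3.58.1 (R 4.3.3), and caudal arrays were added for the comparison of segments. Two-sided moderated p-values of each comparison were corrected over the 12040 genes with the Benjamini-Hochberg method, and 0.05 was the threshold. SE is the moderated standard error. Same-numbered NT3 and LC arrays of rostral cord on day 90 deviated together from their group means (r of 0.13, 0.25 and 0.18). These values are low, so the numbers may pair these samples, which the labels do not say. The fit without a block was kept, so its p-values and SEs leave any pairing out, and the blocked count is given beside it. With the block 77 of the 79 named calls stayed.

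Named genes were the 8 highest and 8 lowest called genes whose groups do not overlap, up to 2 called members of each of 46 lists, and Bdnf, Ntf3, Ngfr, Ntrk2, Ntrk3, Snap25, Mbp, Gfap, Cd68, Aif1 and RT1-CE10. The groups, lists and genes were chosen with earlier results of these data known. On simulated data for NT3 against LC (12040 genes), 13 of 67 genes changed by 0.3 were recovered, 47 of 67 by 0.6 and 64 of 66 by 1.2, with 2 false calls. The simulated noise was drawn independently for each gene and array. Real same-numbered arrays deviated together, so the 2 false calls do not give the rate of false calls in the real comparison.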

Additional observations from a re-analysis of the deposited data

Results flagged for a closer look

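For the genes below the NT3 minus LC difference itself differed between day 90 and day 60 or between rostral and caudal cord, by the test of that difference in limma at an adjusted p under 0.05. Values are day 90 minus day 60, or rostral minus caudal, on the log2 scale. Each was called between rostral NT3 and LC cord on day 90, whose arrays enter both tests.

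Between the days, class I and loading genes had lower differences on day 90. The change was -3.82 for RT1-CE10, -2.45 for RT1-CE16, -1.43 for RT1-CE12, -0.93 for RT1-CE5, -0.75 for RT1-A3 and -1.33 for RT1-S3. The day 90 difference of RT1-CE10 was known when the groups were chosen, so its change is a description and not a test. The change was -0.65 for Tap1, -0.66 for Tap2, -0.77 for Tapbp, -1.45 for Psmb9 and -0.84 for Psme2. RT1-Bb had -4.45, with probe sets that disagree, and RT1-T24-4 had 1.77. Interferon-induced and chemokine genes followed with -1.72 for Isg15, -1.61 for Bst2, -1.49 for Oas1b, -0.86 for Gbp2 and -1.60 for Cxcl11. The change was -0.85 for Aif1, -0.76 for Fcgr2b and -0.96 for Timp1. Other genes with a negative change were Zbtb41 (-2.55), Cplx2 (-1.40), Syngr1 (-1.09), Ier2 (-1.03) and Ebp (-0.57). Positive changes were 1.98 for Scn9a, 1.91 for Pirt, 1.47 for Asic3, 0.96 for Scd, 0.74 for Fads1, 0.70 for Rims2, 0.69 for Cacna1b, 0.66 for Kcna4 and 0.51 for Tef.

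Between the segments, rostral minus caudal was -1.0 for Rpl22 and -0.72 for Rpl24 of the ribosome, and -1.24 for Ndufa5 and -0.96 for Ndufb9 of the respiratory chain. It was -1.47 for Ost4, -1.52 for Ubl5 and -1.38 for Polr2i, which are in neither list. It was -0.77 for Psme2, -0.79 for Hspe1 and -0.64 for Cryab. Zbtb41 had -2.88, Pla2g2a -2.23, Cplx2 -1.59, Chl1 -1.38 and Cntf -0.72. Positive values were 1.56 for Asic3, 1.14 for Gfra3, 0.83 for Cfi and 0.38 for Tubb2b.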

How the results depend on the processing

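For NT3 against LC in rostral cord on day 90, the count of 618 was 1022 with the replicate block, 1851 in a fit of the 6 compared arrays alone, 2853 with array weights, where the fit warned of poor convergence, and 68 with the dorsal root ganglion list as a covariate. The other settings gave 418 to 707. Leaving out 1 array gave 58 to 224. Quantile normalization put 44.1% and scaling to the 75th percentile 42% of calls on the higher side, against 31.1%. The change between days (764) was 2416 in the compared arrays alone, 1049 with the replicate block, and 231 to 1009 without 1 array. The difference between segments (800) was 1608 in the compared arrays alone, 678 with the replicate block, and 24 to 1409 without 1 array, with 42.7% higher by quantile normalization against 22.8%. NT3 against ET (2953) was 3310 with the replicate block and 1782 to 2506 without 1 array, with 57.1% higher by quantile normalization against 46.1%. In these 3 comparisons not every same-numbered pair of arrays correlated above 0.1. Rostral NT3 and LC arrays of day 90 did, and so did rostral and caudal LC arrays (0.256, 0.328 and 0.322), whereas rostral and caudal NT3 arrays had 0.074, -0.199 and -0.043. The causes were not tested. P2rx3 (-0.075) and Trpv1 (-0.019) turned sign with the dorsal root ganglion covariate, which contains both genes.

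Of the named genes, 79 were called as reported, and 18 to 35 of them stayed called without 1 array. Scaling moved the median of all genes to 0.03 by quantile and to 0.02 by the 75th percentile, from -0.0035. With 3 arrays a group, changes of 0.3 were mostly not recovered in simulation. Signal of genes under the filter is not analysed here.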

Other observations

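Of the 31 genes called without each of the 6 arrays in turn, several lie outside the gene lists and were named after their values were seen. Lower in NT3 cord were Acot3, an acyl-CoA thioesterase (-0.76), Gpd2, the mitochondrial glycerol-3-phosphate dehydrogenase (-0.48), Clcc1 (-0.87), and Rab8b and Rab9a, small GTPases of vesicle traffic (-0.52 and -0.44). Higher were Arg2, the mitochondrial arginase (0.60), Greb1 (0.96), Arhgap21 (0.50) and Med9, a Mediator subunit (0.31). Acot3, Gpd2 and Greb1 were called caudally as well, at -0.86, -0.54 and 0.76.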
